A study of Mus musculus with 4 samples.

Results

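The 10 genes described here carry glucose into the cell and turn it into lactate. They were chosen by name among the 32287 genes listed for the WT and TNF-Tg libraries: Slc2a1, Hk1, Hk2, Pfkl, Pfkp, Pfkfb3, Aldoa, Pgk1, Pkm and Ldha. Their levels were measured by single-cell RNA sequencing (scRNAseq) of cells from the popliteal lymphatic vessels and the saphenous vein of the mouse hindlimb, and were compared between wild-type mice and mice with inflammatory arthritis. All 10 genes were found in all 4 libraries.

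Each library pooled the vessels of 3 mice on the C57BL/6J background. The WT library came from male wild-type mice and the TNF-Tg library from male mice of a TNF-transgenic line, which carry a human TNF transgene in addition to their own genes, and both were aged 9 months by their labels. Live cells of these libraries were sorted for high forward or side scatter. The replicate libraries tdT1 and tdT2 held tdTomato-positive cells from Cspg4-Cre;Ai9-tdTomato mice of both sexes without the TNF transgene, in which Cre under the Cspg4 promoter switches on the reporter. Genotype and library cannot be told apart in the comparison of TNF-Tg with WT, which has 1 library on each side and therefore no test. Its intervals are exact 95% intervals for the count of unique molecular identifiers (UMIs) and cover counting error only, not the spread between mice.

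In glycolysis, the glucose transporter encoded by Slc2a1 lets glucose in, hexokinases trap it as a phosphate, and phosphofructokinase commits it to breakdown under the control of the activator made by Pfkfb3. Aldolase, phosphoglycerate kinase and pyruvate kinase then yield ATP and pyruvate, and lactate dehydrogenase turns pyruvate into lactate. Neutrophils are known to rely on this pathway for much of their ATP, and activated macrophages and fibroblasts commonly raise it.

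Cells were assigned to 4 gates by sets of marker genes that hold none of the 10 genes. The neutrophil gate held 348 WT and 228 TNF-Tg cells, the monocyte gate 83 and 824, the macrophage gate 1831 and 448, and the stromal gate 2307 and 1177. The tdT libraries were small outside the stroma, with 14 to 60 cells in each leukocyte gate, against 1156 and 248 stromal cells. No marker of a gate was at 0 within it in any library, counting the Ly6c2 list for monocytes. Summed markers of the stromal list reached 0.151% to 2.78% of their level in the stromal gate when read in leukocytes, and those of the macrophage list 0.0219% to 1.68% of theirs. The monocyte lists were less specific. Outside the monocyte gate, the Ly6c2 list reached 39.5% to 56.2% of its monocyte level in neutrophils, mostly through Hp in each library but tdT1, 1.73% to 6.89% in macrophages and 6.14% to 11.6% in stromal cells. The Treml4 list reached 24.2% to 45.6% in neutrophils, 5.33% to 12.2% in macrophages and 20.6% to 78.0% in stromal cells, the highest value in WT, where Ace gave most of it. The study sought lymphatic and vascular muscle cells. It reported limited Acta2, Myh11 and Tagln transcripts, and low tdTomato in Acta2 reporter mice despite strong staining for the smooth muscle actin protein. It identified the cells by Cald1, Tpm1, Pdgfrb and other genes. In Pdgfrb reporter mice, tdTomato overlapped with that protein in the vessels. The study also related dim and bright sorted tdTomato cells to the imaged lymphatic vessels and vein. It could not fully exclude myofibroblasts from nearby tissue. Here the contractile genes Myh11, Acta2 and Cnn1 were at 0 to 26.3 UMIs per 1000000 in the stromal gate. The muscle filament gene Des was at 8.16 to 31.4, with 27.0 in WT and 16.9 in TNF-Tg. The cells are called stromal here, after the marker list of their gate. Libraries shared 0 to 5 barcodes. The tdT1 library had the highest share of mitochondrial UMIs, 4.11% against 1.16% to 1.56% in the others.

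Levels are given as CPM, the UMIs of a gene per 1000000 UMIs summed over the cells of a gate. Added over the 10 genes, the level in macrophages was 721 in WT and 1416 CPM in TNF-Tg, a ratio of 1.96 (1.91 to 2.02). The sum of the 8 monocyte markers of the Ly6c2 list moved the same way in this gate. That sum was 234 in WT, 483 in TNF-Tg, and 185 and 111 CPM in the tdT libraries. None of the 8 was at 0 in WT or TNF-Tg, but not all of them rose. Ifitm6 was at 69.4 in WT and 54.4 CPM in TNF-Tg, and Itgal at 6.38 and 5.50 CPM. Monocytes hold more of the 10 genes than WT macrophages, and the part of monocyte RNA in the macrophage ratio was not tested. In stromal cells the 10 genes summed to 701 in WT and 1248 CPM in TNF-Tg, a ratio of 1.78 (1.75 to 1.82). Both TNF-Tg values lay above those of the 3 libraries without the transgene, since the tdT1 and tdT2 macrophages stood at 760 and 644 CPM and the tdT1 and tdT2 stromal cells at 751 and 631 CPM. Monocytes had 1411 in WT and 1829 CPM in TNF-Tg, a ratio of 1.30 (1.23 to 1.37), with 1239 and 1227 CPM in the tdT libraries. Neutrophils had 1683 in WT and 1832 CPM in TNF-Tg, a ratio of 1.09 (1.02 to 1.16), and here the tdT libraries, at 1406 and 2061 CPM, spanned both values. Leukocytes other than macrophages thus held the highest summed level in WT, and the TNF-Tg macrophages came near the WT monocytes.

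Of the 10 genes, 4 were at least 1.5-fold higher and 1 was at least 1.5-fold lower in TNF-Tg macrophages, beside 15.5% and 12.6% of all genes with a mean of at least 10 CPM in that gate. One of the 4, Slc2a1, averaged 2.52 CPM and so lies outside the genes behind these shares, which leaves 3 higher among the 9 members that are inside. Stromal cells had 5 higher and none lower, beside 12% and 17.3% of all genes. Monocytes had 2 higher and 1 lower, beside 10.4% and 11.9%. Neutrophils had 1 higher and 2 lower, beside 17.9% and 18.1%, a share near that background. The median log2 ratio of the 10 genes was 0.45 in macrophages and 0.57 in stromal cells, against 0.03 and -0.08 over all genes of the background, while in neutrophils and monocytes it was -0.04 and -0.03, against -0.01 and 0.00. All 10 genes averaged at least 10 CPM in neutrophils, 9 did in monocytes and in macrophages, and 7 did in stromal cells.

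**Figure D1:**
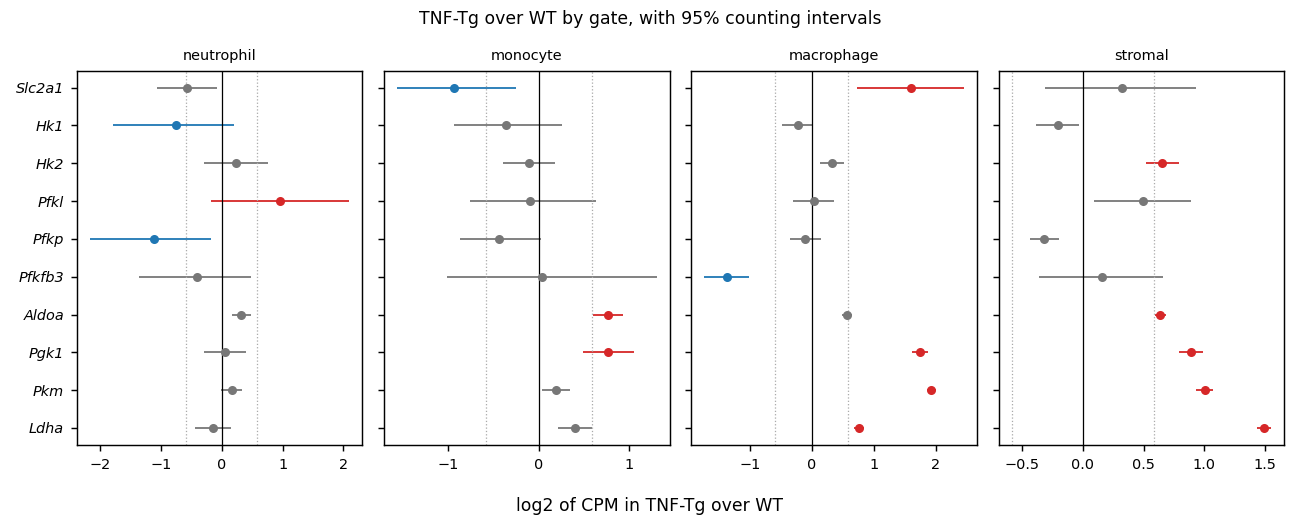
Log2 ratio of CPM in TNF-Tg over WT for each gene, in 1 panel per gate, with exact 95% counting intervals and dotted lines at 1.5-fold; red points are at least 1.5-fold higher and blue points at least 1.5-fold lower. Aldoa, Pgk1, Pkm and Ldha sit to the right of 0 in the macrophage, stromal and monocyte panels, with the largest ratios for Pkm and Pgk1 in macrophages and for Ldha in stromal cells.

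Slc2a1 encodes GLUT1, the glucose transporter found in most tissues. In neutrophils it was at 92.6 in WT and 62.6 CPM in TNF-Tg, and at 130 and 42.6 CPM in the tdT1 and tdT2 libraries, from 5 and 3 UMIs. In monocytes it was at 27.0 in WT and 14.1 CPM in TNF-Tg, with 6.05 and 9.19 CPM in the tdT libraries. Both leukocyte types therefore had less of it in TNF-Tg than in WT, with log2 ratios of -0.56 (-1.07 to -0.08) and -0.94 (-1.56 to -0.25), although the TNF-Tg values lay within the range of the 3 other libraries. Macrophages had next to none, with 1.25 CPM in WT from 28 UMIs and 3.78 CPM in TNF-Tg from 22 UMIs, a log2 ratio of 1.60 (0.72 to 2.46), and 6.98 and 0 CPM in the tdT libraries. Stromal cells were at 1.97 CPM in WT, 2.46 CPM in TNF-Tg, 6.75 CPM in tdT1 and 2.22 CPM in tdT2. The gene thus marked neutrophils above all, and its difference between genotypes pointed in opposite directions in monocytes and macrophages. The macrophage level in TNF-Tg lay between those of the tdT libraries.

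Hk1 and Hk2 encode hexokinases, of which Hk2 is the one that cells usually adjust. Hk1 was at 28.4 in WT and 24.7 CPM in TNF-Tg stromal cells, at 33.8 and 28.9 CPM in macrophages and at 30.2 and 23.4 CPM in monocytes. In neutrophils it was at 27.4 and 16.3 CPM, where 37 and 13 UMIs gave a log2 ratio of -0.75 (-1.79 to 0.19). Its TNF-Tg level lay within the range of the 3 other libraries in every gate. Hk2 was at 126 in WT and 117 CPM in TNF-Tg monocytes, and at 56.3 and 66.4 CPM in neutrophils. In macrophages it was at 38.9 in WT and 48.7 CPM in TNF-Tg, a log2 ratio of 0.32 (0.13 to 0.52). In stromal cells it was at 32.3 in WT and 50.8 CPM in TNF-Tg, a log2 ratio of 0.66 (0.52 to 0.79), which fell under 1.5-fold when all cells were thinned to 3000 UMIs or weighted equally. These TNF-Tg values did not stand apart from the tdT libraries, where Hk2 was at 164 and 79.9 CPM in macrophages and at 227 and 21.5 CPM in stromal cells. The tdT1 stromal cells with at least 10% mitochondrial UMIs had 907 CPM of Hk2 and the others 177 CPM, and the part of the mitochondrial share in that level was not tested.

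Pfkl and Pfkp encode the liver and platelet isoforms of phosphofructokinase. Pfkl was low in stromal cells, with 4.21 CPM in WT, 5.93 CPM in TNF-Tg, 2.99 CPM in tdT1 and 6.67 CPM in tdT2. In macrophages it was at 15.9 and 16.3 CPM in WT and TNF-Tg, and in monocytes at 22.7 and 21.2 CPM, so neither differed beyond counting error. In neutrophils it was at 10.4 in WT and 20.0 CPM in TNF-Tg, but these rest on 14 and 16 UMIs, the log2 interval ran from -0.18 to 2.10, and the ratio turned to -0.46 when cells were thinned to 3000 UMIs. Pfkp had ratios below 0 in all 4 gates, but 0.089 with strict gates in macrophages. It was at 62.9 in WT and 50.5 CPM in TNF-Tg stromal cells, a log2 ratio of -0.32 (-0.44 to -0.19), with 68.9 and 32.6 CPM in the tdT libraries on either side. It was at 32.6 and 15.0 CPM in neutrophils, a log2 ratio of -1.12 (-2.17 to -0.17) from 44 and 12 UMIs, with 130 and 28.4 CPM in the tdT libraries. In macrophages it was at 30.3 and 28.2 CPM and in monocytes at 52.9 and 39.1 CPM, with intervals that included no difference.

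Pfkfb3 (ENSMUSG00000026773, chr2:11471433-11554077 on GRCm38) encodes the enzyme that makes the sugar phosphate that activates phosphofructokinase, and was the one gene of the 10 that was at least 1.5-fold lower in macrophages. It was at 32.3 in WT and 12.6 CPM in TNF-Tg macrophages, a log2 ratio of -1.36 (-1.73 to -1.02), and at 34.9 and 17.8 CPM in the tdT libraries, from 10 and 4 UMIs. Over the whole gate the TNF-Tg value was below all 3 others, and 1.63% of the genes in the background of that gate had a ratio as low. Within Lyve1 macrophages, described below, Pfkfb3 was at 13.2 CPM in TNF-Tg and 11.7 CPM in tdT1. That tdT1 value rests on 22 cells of a gate with 10 UMIs of the gene, so which library was lower is not settled. In the other gates Pfkfb3 did not reach 1.5-fold, with 26.7 and 20.0 CPM in WT and TNF-Tg neutrophils, 8.64 and 8.87 CPM in monocytes and 3.06 and 3.41 CPM in stromal cells. Genes of the immediate-early and heat-shock response, which tissue dissociation is known to induce, were also lower in TNF-Tg macrophages. Among them Egr1 was at 682 in WT and 299 CPM in TNF-Tg. Of these genes, 4 of 9 were at least 1.5-fold lower and none higher, beside 12.6% of all genes lower. Their part in the Pfkfb3 level was not tested.

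The other four genes encode enzymes of the later steps, and all stood above the libraries without the transgene in macrophages, in stromal cells and in monocytes. Aldoa (ENSMUSG00000030695, chr7:126795234-126800751 on GRCm38) encodes aldolase A, which splits the 6-carbon sugar. It was at 271 in WT and 422 CPM in TNF-Tg stromal cells, with 186 and 244 CPM in the tdT libraries. In monocytes it was at 338 in WT and 573 CPM in TNF-Tg, with 266 and 322 CPM in the tdT libraries. The log2 ratios were 0.64 (0.59 to 0.69) and 0.76 (0.60 to 0.93), and the first fell under 1.5-fold, to 0.54, when cells were thinned to 3000 UMIs. Macrophages came just short of 1.5-fold, at 196 and 291 CPM with a log2 ratio of 0.57 (0.49 to 0.65), and the tdT macrophages were at 122 and 138 CPM. Neutrophils had 582 and 729 CPM with a ratio of 0.32 (0.17 to 0.48), and 208 and 625 CPM in the tdT libraries. The gene list holds Aldoa in 2 rows, the second of which had 0 to 1 UMIs in any library.

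Pgk1 (ENSMUSG00000062070, chrX:106187100-106203699 on GRCm38) encodes phosphoglycerate kinase, the first enzyme of the pathway to make ATP. Macrophages had 51.7 in WT and 174 CPM in TNF-Tg, with 45.3 and 66.6 CPM in the tdT libraries, so that TNF-Tg was 2.61 times the highest of the other 3. The log2 ratio of 1.75 (1.63 to 1.87) was above that of 99.4% of the genes in the background. Stromal cells had 55.7 CPM in WT, 103 CPM in TNF-Tg, 45.1 CPM in tdT1 and 57.1 CPM in tdT2, and monocytes had 122 CPM in WT, 207 CPM in TNF-Tg, 127 CPM in tdT1 and 147 CPM in tdT2, with log2 ratios of 0.89 (0.80 to 0.99) and 0.76 (0.49 to 1.05). The monocyte ratio was under 1.5-fold with strict gates, at 0.58. Neutrophils had 137 in WT and 143 CPM in TNF-Tg, with 104 and 128 CPM in the tdT libraries, and the first pair did not differ beyond counting error.

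Pkm (ENSMUSG00000032294, chr9:59656368-59679375 on GRCm38) encodes the muscle-type pyruvate kinase, whose splice forms 3' UMI counts do not tell apart. It had the largest ratio of the 10 genes in macrophages, from 127 CPM in WT to 485 CPM in TNF-Tg, or 1.93 (1.85 to 2.00) on the log2 scale, with 202 and 102 CPM in the tdT libraries. In stromal cells it was at 116 in WT and 232 CPM in TNF-Tg, a log2 ratio of 1.00 (0.94 to 1.07), with 102 and 96.4 CPM in the tdT libraries. Monocytes and neutrophils already had 415 and 507 CPM in WT and were at 472 and 568 CPM in TNF-Tg, and the tdT libraries had 417 and 317 CPM in monocytes and 495 and 753 CPM in neutrophils. The Pkm level of TNF-Tg macrophages was thus close to that of monocytes and neutrophils of the same library.

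Ldha (ENSMUSG00000063229, chr7:46841475-46855627 on GRCm38) encodes the A subunit of lactate dehydrogenase and was the gene with the largest ratio in stromal cells. There it was at 125 in WT and 353 CPM in TNF-Tg, a log2 ratio of 1.49 (1.44 to 1.55), and at 85.7 and 131 CPM in the tdT libraries. Macrophages had 194 CPM in WT, 328 CPM in TNF-Tg, 122 CPM in tdT1 and 151 CPM in tdT2, a log2 ratio of 0.76 (0.68 to 0.84). Monocytes had 269 in WT and 354 CPM in TNF-Tg, a log2 ratio of 0.40 (0.21 to 0.59), with 181 and 184 CPM in the tdT libraries. Neutrophils had 211 CPM in WT, 192 CPM in TNF-Tg, 130 CPM in tdT1 and 213 CPM in tdT2. All 4 gates of TNF-Tg therefore lay between 192 and 354 CPM, while the WT gates ran from 125 to 269 CPM.

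**Figure D2:**
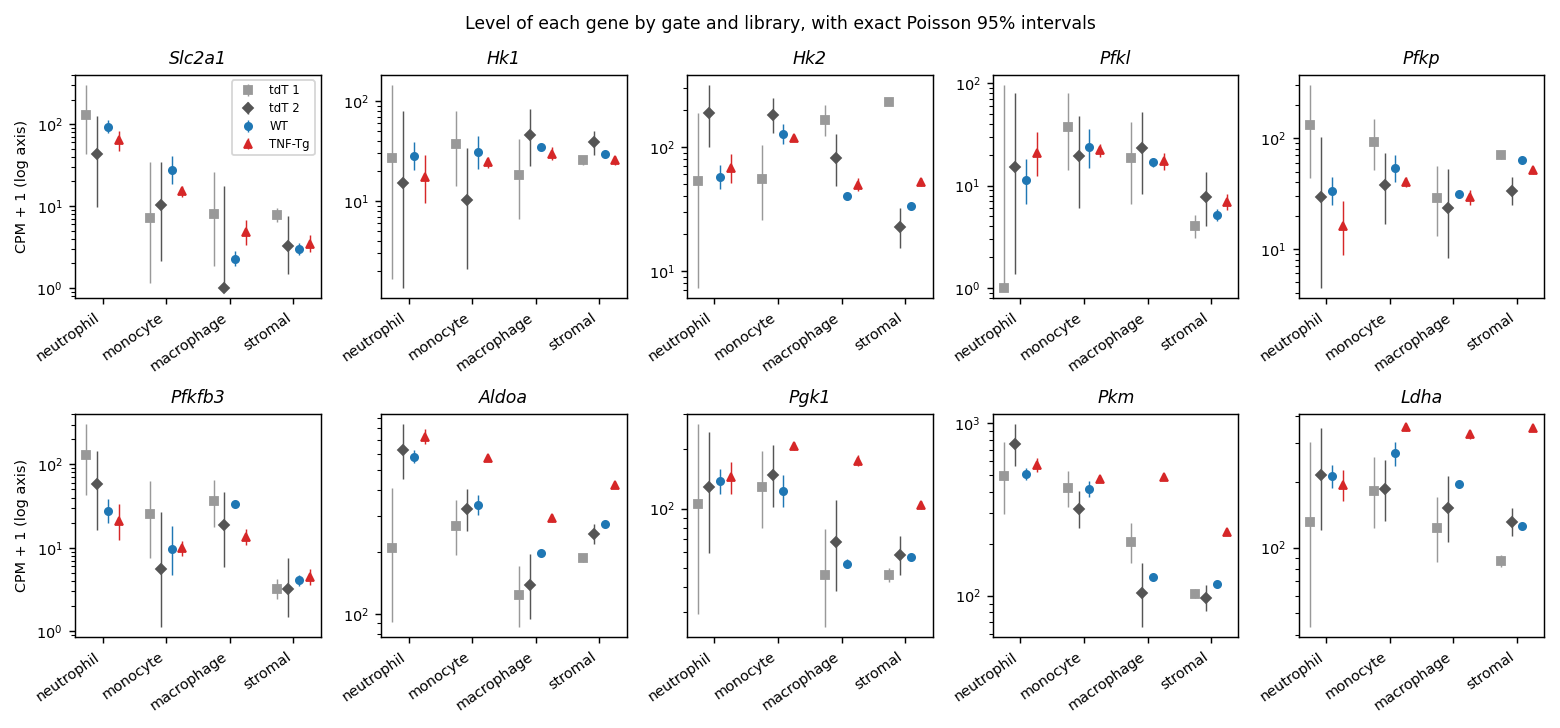
CPM + 1 on a log axis for each of the 10 genes in the 4 gates, with 1 symbol per library (grey square tdT1, dark diamond tdT2, blue circle WT, red triangle TNF-Tg) and exact Poisson 95% intervals. For Pgk1, Pkm and Ldha the red triangle lies above the 3 other libraries in macrophages and stromal cells, while for Slc2a1, Hk1 and Pfkp the libraries overlap in most gates.

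The promoters of the 4 genes that were at least 1.5-fold higher in TNF-Tg in at least 2 gates are shown. Many genes of glycolysis are textbook targets of the hypoxia-inducible factors, which bind a short core of ACGTG or GCGTG. The part of these factors in the levels was not tested. Each window of 300 bases around a RefSeq transcript start (GRCm38.p6) was searched for both cores on both strands, where CACGTG counts on each strand. Capitals mark the matches, and for genes with several starts the window with the most matches is printed. They lie at chr7:126799205-126799504 on the minus strand for Aldoa, chrX:106186850-106187149 on the plus strand for Pgk1, chr9:59656977-59657276 on the plus strand for Pkm and chr7:46845554-46845853 on the plus strand for Ldha.
Aldoa: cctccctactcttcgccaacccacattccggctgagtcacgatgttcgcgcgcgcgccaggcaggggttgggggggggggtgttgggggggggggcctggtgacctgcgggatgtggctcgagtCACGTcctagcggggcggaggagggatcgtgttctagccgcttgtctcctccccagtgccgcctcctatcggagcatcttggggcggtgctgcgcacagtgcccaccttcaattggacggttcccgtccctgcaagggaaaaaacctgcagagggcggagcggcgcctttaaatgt
Pgk1: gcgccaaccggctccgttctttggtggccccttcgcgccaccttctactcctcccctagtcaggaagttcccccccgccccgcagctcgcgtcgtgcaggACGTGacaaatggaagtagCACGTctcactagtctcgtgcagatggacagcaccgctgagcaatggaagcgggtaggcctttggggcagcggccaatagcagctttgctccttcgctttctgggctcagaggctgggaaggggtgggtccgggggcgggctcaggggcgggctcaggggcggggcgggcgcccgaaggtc
Pkm: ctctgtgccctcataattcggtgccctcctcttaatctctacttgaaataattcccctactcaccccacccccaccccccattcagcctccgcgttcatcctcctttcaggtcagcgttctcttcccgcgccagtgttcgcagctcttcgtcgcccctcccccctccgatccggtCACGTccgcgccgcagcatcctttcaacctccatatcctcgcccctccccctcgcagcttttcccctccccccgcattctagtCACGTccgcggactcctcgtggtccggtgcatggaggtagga
Ldha: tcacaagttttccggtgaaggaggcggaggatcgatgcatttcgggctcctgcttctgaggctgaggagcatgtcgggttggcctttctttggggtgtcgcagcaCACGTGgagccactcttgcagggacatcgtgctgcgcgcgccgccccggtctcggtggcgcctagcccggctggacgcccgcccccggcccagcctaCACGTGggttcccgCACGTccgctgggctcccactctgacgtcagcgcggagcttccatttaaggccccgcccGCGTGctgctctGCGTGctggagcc
The Ldha window held 7 matches in 5 stretches, the Pgk1 and Pkm windows 2 each and the Aldoa window 1. Other start windows of Aldoa (chr7:126800398-126800697) and Pkm (chr9:59656326-59656625), not printed, held 0 matches. A further Aldoa window (chr7:126799129-126799428) also held 1. Of the 10 genes all 10 had a match in at least 1 window, against 46.7% of the 27025 genes in the table, and of their 16 windows 13 had one, against 43.8% of all 32851 windows. The 10 genes have more windows per gene, and the sets were not matched for expression or base composition. The difference between these shares was not tested. The genes that were not higher also had matches, with 4 in the Pfkp window and 4 in one of the Pfkfb3 windows, so the count of matches did not separate the genes that were higher from the rest. A match is a run of letters and not a bound site.

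The stromal and macrophage gates hold several kinds of cells whose shares differ between the libraries, so the ratios were taken again within sub-gates. Stromal cells scoring higher for Myoc, Pi16 and Fndc1 than for Cxcl14, Mgp and Gdf10 numbered 1565 in WT and 560 in TNF-Tg. In them 4 genes were at least 1.5-fold higher and none lower, beside 10.3% and 10.8% of all genes, with Ldha at 122 in WT and 312 CPM in TNF-Tg and Pkm at 109 and 217 CPM. Stromal cells of the Cxcl14 type, 484 and 436, had 7 genes higher and none lower, beside 12.2% and 23.9%, with Ldha at 143 and 429 CPM and Aldoa at 293 and 483 CPM. Of these 7, Slc2a1 and Pfkl average under 10 CPM, outside the genes behind the shares, and rest on 7 to 31 UMIs a library with intervals that include no difference. Both kinds of stromal cells thus had higher Hk2, Pgk1, Pkm and Ldha levels in TNF-Tg than in WT. For Hk2, though, the tdT1 and tdT2 libraries lay on either side of TNF-Tg. They had 213 and 40.2 CPM around 53.6 CPM in the first kind, and 259 and 6.67 CPM around 48.5 CPM in the Cxcl14 type. Over the whole stromal gate, 23.1% of WT and 22.8% of TNF-Tg cells had a UMI of Hk2.

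Macrophages scoring for Lyve1, Cd209f and related genes of resident cells numbered 1514 in WT and 279 in TNF-Tg, and those with Ccr2 but neither Lyve1 nor Cd209f 278 and 153. The first had 4 genes higher and 1 lower, beside 15.6% and 8.97% of all genes, and the second 6 higher and 2 lower, beside 18.2% and 17.2%. Slc2a1 is counted in both, again under 10 CPM, on 13 and 5 UMIs in the first and 15 and 16 in the second. Both of its intervals include no difference. Pkm went from 119 to 435 CPM in Lyve1 macrophages and from 163 to 543 CPM in Ccr2 macrophages, and Pgk1 from 48.4 to 171 CPM and from 69.0 to 179 CPM. The ratios of both genes were therefore large in either kind. Hk2 had opposite directions in them. It was at 33.3 in WT and 55.1 CPM in TNF-Tg Lyve1 macrophages, a log2 ratio of 0.73 (0.48 to 0.97), but at 67.9 and 39.6 CPM in Ccr2 macrophages, a ratio of -0.78 (-1.14 to -0.42). Pfkfb3 was at 36.0 and 13.2 CPM in Lyve1 macrophages, with 11.7 and 22.9 CPM in the tdT libraries, from 22 and 49 cells. In Ccr2 macrophages, whose WT level was already low, it was at 14.3 and 12.2 CPM. The tdT libraries had 68.1 and 0 CPM there, from 11 and 9 cells. Monocytes of the Ly6c2 type, 77 in WT and 599 in TNF-Tg, gave 2 genes higher and 1 lower, beside 9.42% and 14.1%, with log2 ratios of 0.77 (0.60 to 0.94) for Aldoa and 0.77 (0.49 to 1.06) for Pgk1. Monocytes of the Treml4 type numbered 6 in WT and held 44 UMIs of the 10 genes, and their 3 higher and 2 lower genes, beside 26% and 36.4%, are not described further.

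**Figure D3:**
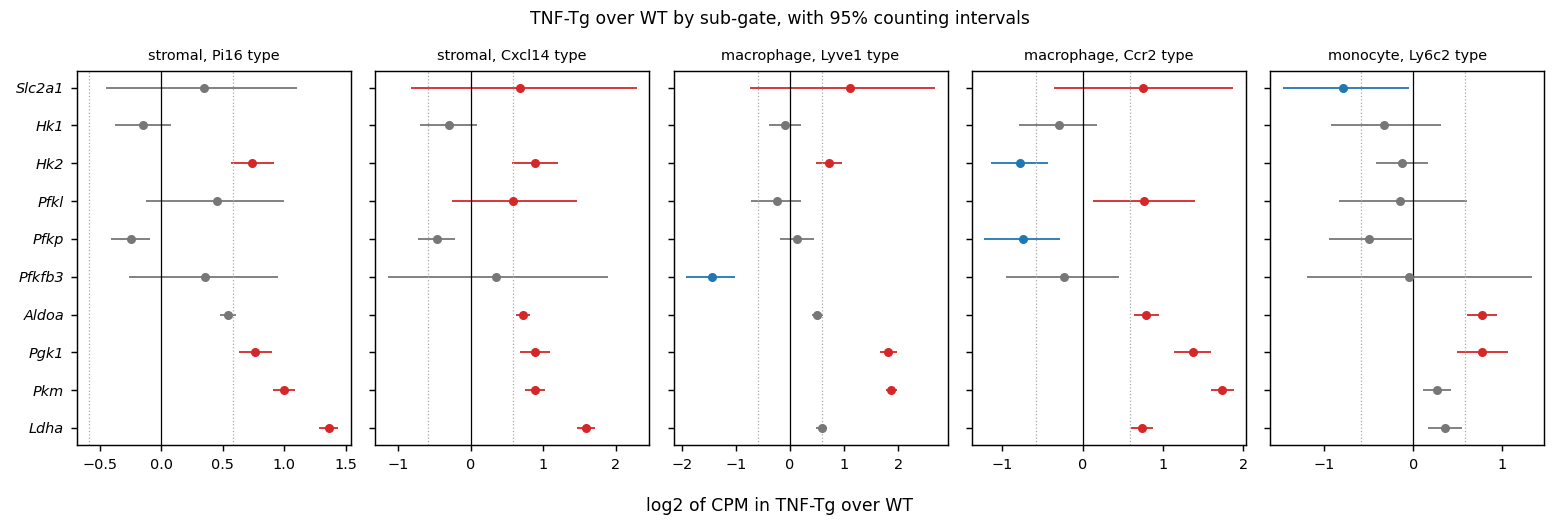
Log2 ratio of CPM in TNF-Tg over WT for each gene in 5 sub-gates, drawn as in the plot of ratios by gate, with axes that differ between panels. Pkm and Pgk1 lie above 1.5-fold in both stromal and both macrophage sub-gates, while Hk2 is above 0 in Lyve1 macrophages and below 0 in Ccr2 macrophages.

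Counted per cell, each cell was thinned to 3000 UMIs and shallower cells were left out, which removed 120 of 1831 WT and 31 of 448 TNF-Tg macrophages and 191 of 2307 WT and 99 of 1177 TNF-Tg stromal cells. The 10 genes then had a median of 2 UMIs in a WT macrophage and 4 in a TNF-Tg macrophage, with means of 2.13 and 3.94. Stromal cells had medians of 2 and 3, with means of 2.09 and 3.47. Monocytes had medians of 4 and 5 and neutrophils of 5 and 5, although 111 of 348 WT and 106 of 228 TNF-Tg neutrophils were too shallow. In macrophages and stromal cells the whole distribution lay to the right in TNF-Tg, with upper quartiles of 6 and 5 UMIs against 3 and 3 in WT. The difference was thus not confined to the cells with the most UMIs. Cells with no UMI of the 10 genes made up 14.3% of WT and 6.71% of TNF-Tg macrophages. In stromal cells they made up 13.2% and 5.01%. Whether all cells of a gate shared in the difference was not tested.

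**Figure D4:**
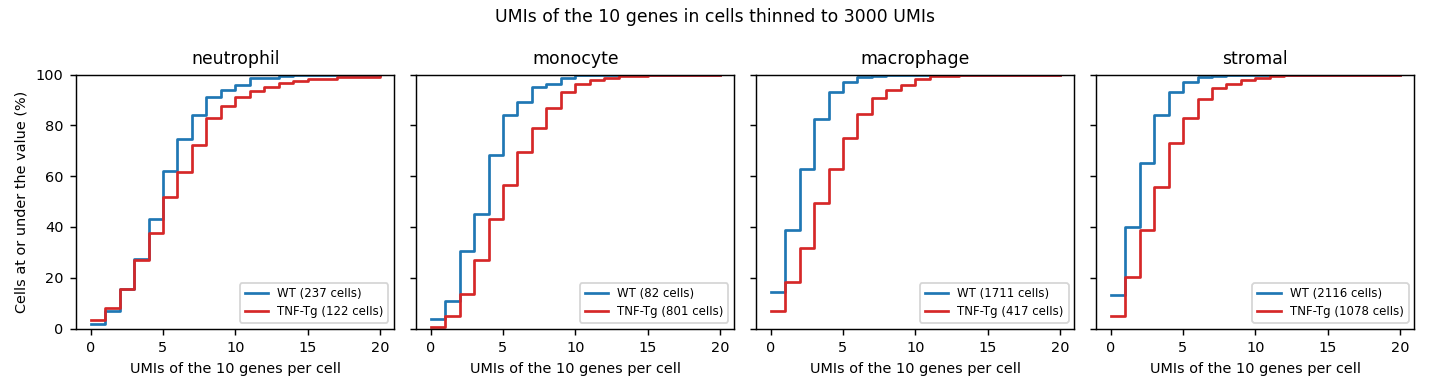
Cumulative share of cells (percent) by the number of UMIs of the 10 genes in a cell thinned to 3000 UMIs, for WT (blue) and TNF-Tg (red) in each gate. The curves lie apart in macrophages and stromal cells, where the median moves from 2 to 4 and from 2 to 3 UMIs, and nearly together in neutrophils.

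Cell types were compared with the 4 libraries as replicates, by edgeR's quasi-likelihood test with a term for the library, over 9522 genes and with Benjamini-Hochberg adjusted p-values called under 0.01. The fold changes are on the log2 scale after TMM scaling, with the SE derived from the test statistic, and the median of all genes was -0.35 for neutrophils minus macrophages, -0.15 for neutrophils minus monocytes, -0.11 for monocytes minus macrophages and 0.17 for stromal cells minus macrophages. Against macrophages, neutrophils were called higher for 5 of the 10 genes and lower for none, beside 17.9% and 24.5% of all genes. Slc2a1 differed most, by 5.93 ± 0.51 (SE, adjusted p = 2.3e-09). Aldoa differed by 2.14 ± 0.34 (adjusted p = 1.8e-05), Pkm by 2.04 ± 0.36 (adjusted p = 5.8e-05) and Pgk1 by 1.43 ± 0.31 (adjusted p = 0.00058). Pfkfb3 differed by 1.19 ± 0.36 (adjusted p = 0.0078), a call that was lost in every alternative but the strict gates, with adjusted p-values of 0.016 to 0.18. The call of Pgk1 was lost without the WT library (0.76, adjusted p = 0.099) and without the library term (1.28, adjusted p = 0.025). Hk1, Hk2, Pfkl, Pfkp and Ldha did not pass, with differences of 0.35 to 1.07. The contrast averages over the 4 libraries, which did not all show these differences. Within TNF-Tg, Pgk1 was lower in neutrophils than in macrophages, at 143 and 174 CPM. Pkm was at 568 and 485 CPM there and Aldoa at 729 and 291 CPM. Within WT, Pgk1 was at 137 and 51.7 CPM and Pkm at 507 and 127 CPM.

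Against monocytes, neutrophils were called higher for Slc2a1, by 2.93 ± 0.44 (adjusted p = 1.4e-05), and for Pfkfb3, by 2.26 ± 0.41 (adjusted p = 0.00014), and lower for none of the 10 genes, beside 15.6% and 16% of all genes. Monocytes were called higher than macrophages for Slc2a1, by 3.00 ± 0.52 (adjusted p = 9.3e-05), beside 6.32% of genes higher and 11.2% lower. Without the WT library that difference was 1.92 (adjusted p = 0.021). Averaged over the libraries, Slc2a1 was thus higher in neutrophils than in monocytes, and higher in monocytes than in macrophages. Not every library had this order, since tdT1 had 6.05 CPM in monocytes, from 1 UMI, and 6.98 CPM in macrophages. Stromal cells and macrophages differed in Slc2a1 by 0.66 ± 0.50 (adjusted p = 0.29), and stromal cells were not tested against monocytes. Stromal cells were called higher than macrophages for Pfkp, by 1.19 ± 0.23 (adjusted p = 0.0001), and lower for Pfkl, by -1.55 ± 0.28 (adjusted p = 5.4e-05), and for Pfkfb3, by -2.74 ± 0.32 (adjusted p = 7.1e-08), beside 21.9% and 17.7% of all genes. Without the WT library Pfkl was at -1.48 (adjusted p = 0.013). The stroma thus had more Pfkp and less Pfkl than macrophages, while Pgk1 (SE of the difference 0.29, adjusted p = 0.99) and Ldha (SE 0.28, adjusted p = 0.996) were not called.

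Other enzymes of glycolysis, from a list that holds none of the 10 genes, were read in the same way. Of the 17 on the list, 7 averaged at least 10 CPM in macrophages, of which 5 were at least 1.5-fold higher in TNF-Tg and none lower. Gapdh was at 299 in WT and 968 CPM in TNF-Tg, Eno1 at 96.3 and 285 CPM, Pgam1 at 71.7 and 146 CPM and Tpi1 at 74.4 and 119 CPM. In stromal cells 3 of 6 were higher and none lower, namely Eno1 at 56.2 and 132 CPM, Gapdh at 315 and 702 CPM and Tpi1 at 80.4 and 166 CPM. Monocytes had 3 of 8 higher. Eno3, a muscle enolase, was at 11.9 in WT and 127 CPM in TNF-Tg there, Eno1 at 309 and 489 CPM and Pgam1 at 172 and 262 CPM. Neutrophils had 3 of 8 higher and 1 lower, with Pgam1 at 104 and 174 CPM and Tpi1 at 47.4 and 85.1 CPM. Over all genes the shares higher were 15.5% in macrophages, 12% in stromal cells, 10.4% in monocytes and 17.9% in neutrophils, where 18.1% were lower. In the comparison of cell types, 7 of the 8 genes tested were called higher in neutrophils than in macrophages, with Eno1 at 1.70 ± 0.34 (adjusted p = 0.0002). The transporter gene Slc2a6 was at 77.8 in WT and 169 CPM in TNF-Tg neutrophils and at 22.7 and 86.1 CPM in monocytes. The monocyte gate held 6 cells of the Treml4 type in WT and 225 in TNF-Tg. Eno3 and Slc2a6 were not read within the Ly6c2 type alone. In neutrophils the Treml4 list summed to 463 in WT and 871 CPM in TNF-Tg. The part of such cells or RNA in the Eno3 and Slc2a6 levels was not tested.

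Pathways that draw on glycolysis were read next. In the pentose phosphate pathway, which branches off to make NADPH and ribose, 3 of 7 genes were at least 1.5-fold higher in TNF-Tg macrophages. Stromal cells also had 3 of 7 higher, and neither gate had any lower, beside 15.5% and 12% of all genes higher. Taldo1 was at 127 and 254 CPM in macrophages and at 81.2 and 152 CPM in stromal cells. Of 12 genes of the citric acid cycle, 5 were higher in macrophages and 2 in stromal cells, beside 15.5% and 12% of all genes, so the stromal count is near the background. Mdh2 was at 66.8 and 142 CPM in macrophages and at 91.1 and 154 CPM in stromal cells. Among genes of pyruvate and lactate fate, the lactate exporter Slc16a3 was at 446 in WT and 254 CPM in TNF-Tg neutrophils but at 41.0 and 85.4 CPM in monocytes, and the mitochondrial pyruvate carrier gene Mpc1 was at 413 and 184 CPM in neutrophils but at 101 and 168 CPM in stromal cells. Of 5 such genes at 10 CPM or more, neutrophils had 2 lower and none higher, and of 8 each, monocytes had 2 higher, macrophages none, and stromal cells 2 higher and 1 lower. Over all genes 18.1% were lower in neutrophils and 10.4% were higher in monocytes. In stromal cells 12% of all genes were higher and 17.3% lower.

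Genes of the hypoxia response other than the 10 did not share one direction. Macrophages had 2 of 8 at least 1.5-fold higher and 2 lower, beside 15.5% and 12.6% of all genes. Stromal cells had 1 of 12 higher and 3 lower, beside 12% and 17.3%. With so few genes, these counts are near the background. Mif, a cytokine gene, was at 86.3 and 208 CPM in macrophages and at 104 and 284 CPM in stromal cells, and Hif1a was at 91.1 and 190 CPM in macrophages. The mitophagy receptor gene Bnip3 was lower in stromal cells, at 66.6 in WT and 42.2 CPM in TNF-Tg. Of the 6 glycogen genes, 2 of 5 at 10 CPM or more were higher in macrophages, beside the same 15.5% of all genes. None of 4 at that level was apart in stromal cells. Of the 6 other genes that set the level of that activator or of its sugar, Pfkfb4, named after its values were seen, alone averaged at least 10 CPM in any gate, and it was not 1.5-fold apart there.

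Markers of other sources were read in the same gates. Genes of skeletal muscle, which also makes much aldolase and enolase, summed to 3.03 and 4.84 CPM in WT and TNF-Tg stromal cells and to 4.86 and 3.78 CPM in macrophages. Haemoglobin and other erythroid genes summed to 532 in WT and 20.0 CPM in TNF-Tg macrophages, to 10.8 and 554 CPM in monocytes, and to 52.0 and 301 CPM in stromal cells. Among cells with under 1% of their UMIs from haemoglobin, a limit chosen after these levels were seen, the summed ratio of the 10 genes was 0.97 in macrophages and 0.83 in stromal cells on the log2 scale. Proliferation genes summed to 82.6 and 64.5 CPM in macrophages and to 21.2 and 12.9 CPM in stromal cells. Of the genes of the dissociation response, 2 of 8 in neutrophils, 5 of 9 in monocytes and 3 of 10 in stromal cells were at least 1.5-fold lower in TNF-Tg, and none was higher. Over all genes 18.1% were lower in neutrophils, 11.9% in monocytes and 17.3% in stromal cells. The part of the dissociation genes in the ratios of the 10 genes was not tested.

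Over the 16 sums of 4 gates and 4 libraries, the genes whose log2 level most resembled the summed level of the 10 genes were Hp with a Pearson r of 0.94, Trem3 with 0.93, and Cdkn2d, Mrpl33 and Gapdh with 0.92 each, among 2860 genes averaging at least 50 CPM. Sums from one library share its depth and its processing, and Hp is one of the monocyte gate markers, so these values describe the pattern only.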

How the data were processed

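The 4 libraries of mouse vessel cells were made with the 10x Genomics Chromium 3′ kit. The deposited values are UMI counts for each gene in each cell. The authors produced them with Cell Ranger (version 3.1.0 for tdT1 and 6.0.1 for the others per the file headers) on mm10, as the submitters' processing notes give it, and did not normalize them. The tdT1 library was also sorted through a smaller nozzle and sequenced on another instrument. The counts were read in Python 3.11.15 without further filtering of cells.

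A cell entered a gate when the mean of log2(1 + UMIs per 10000) over the gate's markers was at least 1 and at least 0.75 above every other type. The gates held 78.9% to 83.3% of the cells of a library. UMIs were summed per gate and library and divided by the gate's total, and ratios of TNF-Tg over WT were given exact conditional binomial intervals. Genes with a mean CPM of at least 10 formed the background. Libraries held 2357031 to 68773605 UMIs. Cell types were tested in R 4.3.3 with edgeR 4.0.16 (glmQLFit, TMM, filterByExpr) on 16 sums of at least 10 cells, which left 9 residual degrees of freedom. Since the library term takes up shifts shared by all gates, the p-values measure how differences between cell types vary from library to library. The libraries differ in genotype and sorting. On simulated counts for neutrophils minus macrophages with 8981 genes, the test called 1 of 47 genes changed by 1 on the log2 scale, 33 of 48 changed by 2, 43 of 47 changed by 3, 49 of 49 changed by 4 and 0 of 8790 unchanged genes. The simulation had a dispersion of 0.1 for every gene, no library effect and equal means in all gates for unchanged genes. The real libraries differ more than this, so these rates need not hold for them. Promoter sequences are from RefSeq.

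All 10 genes are named with their values. Of the other lists, cell type markers and Pfkfb4 aside, the genes named were at least 1.5-fold apart in the gate. They had a mean CPM of at least 50 there, and at most 4 were named per list and gate. A gene left unnamed may still meet these limits. The 10 genes and the lists were chosen with earlier results of these data known. Doublets were not removed in the main values, and Scrublet in scanpy 1.11.5, run for WT and TNF-Tg, called 137 and 74 cells. No protein sequences were used here, and the human transgene is not in the gene lists, so the genotype labels were not checked by it.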

Additional observations from a re-analysis of the deposited data

Results flagged for a closer look

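Slc2a1 differed in opposite directions between gates, with log2 ratios of TNF-Tg over WT of 1.60 in macrophages, -0.56 in neutrophils and -0.94 in monocytes, and intervals that exclude 0 in each. The macrophage value rests on 28 and 22 UMIs at 1.25 and 3.78 CPM. In both macrophage sub-gates the interval included 0, at -0.74 to 2.68 in the Lyve1 type and -0.35 to 1.88 in the Ccr2 type. In each of these gates the TNF-Tg level lay within the range of the libraries without the transgene. The difference between the gates was not tested, since each genotype has 1 library.

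Hk2 did the same within macrophages, with a log2 ratio of 0.73 in the Lyve1 type and -0.78 in the Ccr2 type. This difference was not tested either. In the Lyve1 type the tdT1 and tdT2 libraries had 47.0 and 68.6 CPM of Hk2, on either side of 55.1 CPM in TNF-Tg and above 33.3 CPM in WT. In the Ccr2 type they had 128 and 134 CPM, from 11 and 9 cells, above both WT and TNF-Tg.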

How the results depend on the processing

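No paired analysis was possible because WT and TNF-Tg are 1 library each and the replicate number of the tdT libraries pairs them with nothing. In the comparison of TNF-Tg with WT, the alternatives were other gate limits and marker subsets, cell filters, doublet removal, scaling, thinning and equal weight per cell, and 89 of 96 values of the summed level or the number of genes kept their direction and size. The summed log2 ratio moved to 0.28 with strict gates in monocytes. In macrophages it was 0.87 without the 50 highest genes, 0.90 after thinning and 0.91 as a mean over cells. In stromal cells it was 0.92 after centring on the median gene, 0.70 after thinning and 0.71 as a mean over cells. All 5 calls in macrophages, 3 of 5 in stromal cells, 2 of 3 in monocytes and 2 of 3 in neutrophils were kept in all 12 settings. Pfkl in neutrophils reversed to -0.46 after thinning to 3000 UMIs, and Pfkfb3 in neutrophils, at -0.41, turned to 0.82 with even-numbered markers.

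For the cell types, the number of the 10 genes called between neutrophils and macrophages was 3 without the library term and 3 to 5 when each library was left out, the lowest without WT. Between monocytes and macrophages, where 1 gene was called, it was 3 with DESeq2 size factors, 6 without the low-count filter, 3 with DESeq2, 4 with strict gates and 0 to 3 when each library was left out, 3 without tdT1 and 0 without WT. The cause was not tested. Depth limits the leukocytes of the tdT libraries, whose 14 to 60 cells per gate gave 0 to 5 UMIs for Slc2a1. With 1 library per genotype, no ratio of TNF-Tg over WT has an error that includes mice.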

Other observations

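Cells outside the 4 gates were read for the same 10 genes. T or NK cells, 63 in WT and 70 in TNF-Tg, had 1499 and 1374 CPM over the 10 genes, a log2 ratio of -0.13 (-0.27 to 0.02). Aldoa was at 355 and 385 CPM in them, Pgk1 at 160 and 170 CPM and Pkm at 287 and 257 CPM, none beyond counting error, while Ldha was lower in TNF-Tg, at 458 and 377 CPM, a log2 ratio of -0.28 (-0.57 to -0.0025). Cells that entered no gate, 743 and 549, had 1068 and 1445 CPM, a log2 ratio of 0.44 (0.40 to 0.48), with Pkm at 201 and 337 CPM and Ldha at 312 and 480 CPM, while Pfkp was at 74.3 and 41.8 CPM.

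Cells with mast cell or basophil markers, 100 and 78, had 1446 and 2472 CPM over the 10 genes, with Hk2 at 82.3 in WT and 407 CPM in TNF-Tg and Aldoa at 247 and 921 CPM. The 2 libraries held different cells here, so these values do not compare 1 cell type. The mast cell protease gene Mcpt4 was detected in 99 of 100 cells in WT and in 22 of 78 in TNF-Tg, and the basophil protease gene Mcpt8 in 5 and 54.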
